A study of Mus musculus with 6 samples.

Results

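The genes described here encode the proteins of the cytosolic ribosome, read in Foxp3+ CD4 T cells of mouse mesenteric lymph nodes. Members were the genes of the array's annotation whose symbol is Rpl or Rps followed by a digit, without the Rps6k kinases, together with Rplp0, Rplp1, Rplp2 and Rpsa. Of 18193 genes that had a probe set with 1 symbol, 51 met this rule, 26 of the large subunit (Rpl) and 25 of the small subunit (Rps). Each gene was read from 1 probe set, the one with the highest mean log2(signal + 16) over the arrays.

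The study placed RNA of 3 iTreg samples and 3 WT total Treg samples on 6 single-colour Affymetrix arrays. The iTreg were GFP-sorted CD4+ Foxp3+ cells of TBmc mice on the Balb/c background with a Foxp3 GFP reporter, given 1% ovalbumin by mouth for 1 week, and their cell type label reads Nrp-, that is, lacking neuropilin. The WT Treg were CD4+ Foxp3+ cells of Balb/c wild-type Foxp3 GFP mice, for which the labels give no feeding. All mice were 4 to 6 weeks old, and both groups came from the mesenteric nodes and were sorted on the Foxp3 reporter. All T cells of TBmc mice bear the same ovalbumin-specific receptor and all B cells the same antibody, since recombinase is lacking, and Treg of these mice arise in the periphery. Genotype, receptor repertoire, feeding and gate therefore differed together between the groups and cannot be told apart. WT Treg replicate 1 is also labelled Nrp- although its title says total Treg, and iTreg replicate 1 is labelled as Balb/c without the word TBmc. The labels do not say that replicates came from separate mice. A p-value here sets the difference between the groups against the variation among these arrays. Part of that variation may be technical, and it may leave out variation between mice.

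A ribosome joins a small subunit, which reads the messenger RNA, to a large subunit, which forms the peptide bond and holds the exit tunnel. Each subunit is built in the nucleolus from ribosomal RNA and a fixed set of proteins, most of them present as a single copy per ribosome. The mRNAs of these proteins begin with a pyrimidine-rich stretch, the terminal oligopyrimidine tract, through which mTOR and Larp1 control their translation, and T cells make more ribosomes when they leave quiescence.

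The start sites of a few members are shown because the tract at the first base is the feature for which this gene family is known, and because these genes return in the results. Sequences are from RefSeq, build GRCm38.p6, with 30 bases before the annotated start and 30 from it, 5′ to 3′ on the strand of the gene. In the first 5 the capitals mark the tract, a C followed by at least 4 pyrimidines from the first base. In the last 2, which lack such a tract at the annotated base, they mark CCGGAAG, a core motif of ETS factors.
Rpl35, chr2:39005102-39005161, minus strand: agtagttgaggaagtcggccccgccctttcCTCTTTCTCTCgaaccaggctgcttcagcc
Rps10, chr17:27635215-27635274, minus strand: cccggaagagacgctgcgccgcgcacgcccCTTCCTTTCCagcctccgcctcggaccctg
Rps18, chr17:33955636-33955695, minus strand: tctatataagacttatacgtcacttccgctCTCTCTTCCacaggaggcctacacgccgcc
Rps6, chr4:86857338-86857397, minus strand: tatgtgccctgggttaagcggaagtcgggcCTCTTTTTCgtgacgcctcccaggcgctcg
Rpl38, chr11:114668550-114668609, plus strand: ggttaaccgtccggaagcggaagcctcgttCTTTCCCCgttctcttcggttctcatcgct
Rpl11, chr4:136053364-136053423, minus strand: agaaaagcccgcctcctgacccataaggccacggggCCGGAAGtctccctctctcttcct
Rps27l, chr9:66946056-66946115, plus strand: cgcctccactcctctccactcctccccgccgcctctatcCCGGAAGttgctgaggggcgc

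RefSeq windows of 250 bases before to 50 bases after the start were at hand for 44 of the 51 members, 52 windows in all, since some genes have several starts. A tract at the annotated first base was found in 8 of the 44 (18.2%), against 3.01% of all 27025 genes with a window. CCGGAAG or its reverse complement CTTCCGG lay in a window of 21 of the 44 members (47.7%), against 9.93% of all genes. AAGATGG, the core of YY1 sites, or its reverse complement CCATCTT lay in a window of 8 members (18.2%), against 7.28% of all genes. CCGGAAG ends in the AAG with which AAGATGG begins, so matches of both can overlap. The count of tracts depends on the annotated base; in Rpl11 a run of pyrimidines lies downstream of it and ends the stretch shown. The median log2 difference between the groups was -0.06 in the members with a tract at the annotated base and -0.26 in the others, or 0.20 and -0.06 without WT Treg replicate 3. It was -0.22 with and -0.17 without CCGGAAG, and -0.12 with and -0.22 without AAGATGG.

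The annotation decides which ribosomal proteins can be read. A further 110 probe sets carried several symbols with at least 1 ribosomal protein symbol among them, 76 for the large and 34 for the small subunit, and no gene is named from these. The genes Rpl5 and Rplp1, for example, are not analysed here. Of the 51 members, 43 carry the name of a standard ribosomal protein. The other 8 are Rps15a-ps6, a pseudogene by its name, Rps19bp1, a nucleolar protein that binds Rps19 and is no part of the ribosome, and the paralogues Rpl22l1, Rpl7l1, Rps27l, Rpl39l, Rpl3l and Rps4l. For Rps27, Rps6, Rps16, Rpl37, Rpl12, Rpl14, Rpl39 and Rps25 brighter probe sets with several symbols exist. A low signal of these members is that of the probe set read and cannot be taken as the level of the gene.

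The filter on low signals, a mean log2(signal + 16) of at least 4.99, left 46 members to test, 23 of each subunit. The 5 below it were Rpl37, Rpl39l, Rpl3l, Rps16 and Rps4l, whose mean signals lay within the range of 27 control probe sets for bacterial transcripts that were not spiked in (at most 28.5). The other 46 had mean signals above that range, 45 of them on each of the 6 arrays. Together the 51 probe sets made up 4.75%, 4.69% and 4.40% of the summed signal of all genes on the iTreg arrays, against 4.94%, 4.25% and 6.22% on the WT Treg arrays. The share was highest on WT Treg replicate 3, and the groups overlapped.

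The arrays had been scaled to 1 level, with a trimmed mean of 150.0 each, and differed in RNA quality measures. The median signal was 26.8, 27.5 and 24.3 in iTreg, against 32.3, 31.7 and 21.1 in WT Treg, lowest on replicate 3 of each group. The 3′ minus 5′ log2 difference of Gapdh was 3.01, 2.46 and 3.35 in iTreg, against 2.26, 2.49 and 2.33 in WT Treg, so the highest value stood on iTreg replicate 3. That of Actb ran the other way, with 0.38, 0.25 and 0.00 in iTreg, against 0.14, 0.27 and 0.32 in WT Treg, lowest on iTreg replicate 3. Of the markers of the sorted cells, 4 of 4 measured CD4 T cell markers and 6 of 6 Treg markers had a mean above the unspiked controls, though Foxp3 itself was close to them, with 31.7, 54.6 and 15.6 in iTreg, against 26.2, 45.7 and 9.16 in WT Treg. The Treg markers summed to 6744 to 8147 in iTreg and 11711 to 13906 in WT Treg. Of other cells, 1 of 4 B cell, 0 of 4 dendritic cell and 1 of 5 myeloid markers were above the controls, and the myeloid markers summed to 120 to 187 in iTreg and 67.2 to 110 in WT Treg. Both CD8 T cell markers were above them, with sums of 101 to 225 in iTreg and 73.2 to 107 in WT Treg, as were 2 of 4 plasma cell, 1 of 2 erythroid and 2 of 3 stromal and epithelial markers. Of these last, Epcam had 23.1, 51.3 and 56.7 in iTreg, against 78.9, 176 and 312 in WT Treg. The part of these differences in the results that follow was not tested beyond leaving out arrays.

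Ribosomal protein genes lay slightly lower in iTreg as a group, by less than the arrays of WT Treg differed among themselves, and no single member passed the test. Of the 51 members, 38 had a lower and 13 a higher mean in iTreg, with a median log2 difference (iTreg minus WT Treg) of -0.17, where the median of all 18193 genes was -0.01 and 50.7% were lower. Of the 43 standard members alone, 30 were lower and 13 higher, with a median of -0.15. At an adjusted p under 0.05 (limma, Benjamini-Hochberg over all genes tested), 0 of 46 members were called, against a background of 0.0275%, which was 3 of 10916 genes (Flicr, Nt5e and Trav12n-1, all lower in iTreg). The smallest adjusted p of a member was 0.555, for Rps19. At an unadjusted p under 0.05, 4 members (Rps19, Rps19bp1, Rpl22l1 and Rps14) were lower (8.70%) where 4.58% of all genes were, and 0 were higher where 3% of all genes were. In 2 members, Rps19 and Rps19bp1 (4.35%), every iTreg array lay below every WT Treg array, against 7.78% of all genes, and in 0 every iTreg array lay above, against 5.1%. Of these shares, only that of lower members at an unadjusted p under 0.05 (8.70%) was above its background. Of its 4 genes, Rps19bp1 and Rpl22l1 are not standard ribosomal proteins. Among the 43 standard members, 41 of them tested, 2 were lower at that threshold (4.88%, against 4.58% of all genes). In these bulk samples fewer cells with a given transcript and less of it per cell cannot be told apart.

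The members' differences had smaller standard errors, in the median, than those of all genes tested. The limma errors follow a trend with signal intensity, and genes of like signal were not set beside the members. The 95% interval of the log2 difference lay within 1 unit of 0 on either side for 30 of the 46 members tested (65.2%), against 33.0% of all genes tested. For these 30 a change larger than that bound lay outside the interval, while smaller changes could not be resolved with 3 arrays per group. The interval covers only the probe set read. Another probe set of Rpl35, which is 1 of the 30, gave -1.06. The median standard error of a member's difference was 0.30 on the log2 scale, against 0.38 for all genes tested.

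**Figure D1:**
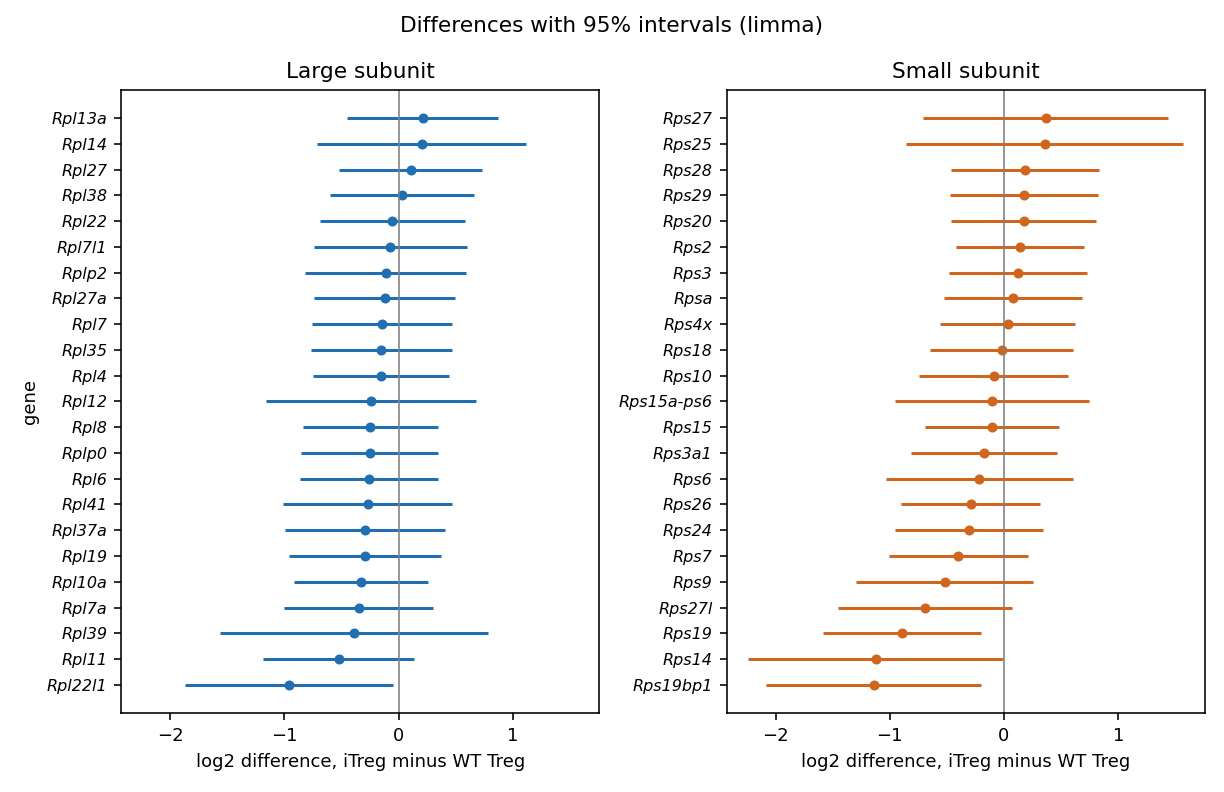
Log2 differences (iTreg minus WT Treg, horizontal axis) of the 46 members tested, with 95% intervals from limma as lines, the large subunit at left and the small subunit at right. The 23 large subunit genes run from -0.96 (Rpl22l1) to 0.21 (Rpl13a). The 23 small subunit genes run from -1.14 (Rps19bp1, counted here by its symbol though no part of the ribosome) to 0.37 (Rps27). Most intervals cross 0.

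The subunits differed little. The large subunit had 4 members with a higher and 22 with a lower mean in iTreg and a median log2 difference of -0.24. The small subunit had 9 and 16 and a median of -0.10, with a wider spread (SD over genes 0.41, against 0.24 in the large subunit). Members were placed by symbol, so this spread includes Rps19bp1, which is no part of the ribosome and had the most negative difference. The small subunit median exceeded the large by 0.14, which turned to -0.019 without WT Treg replicate 3. On single arrays, the mean of the small minus the mean of the large subunit was taken over all members, those below the filter included. It was -0.19, -0.10 and -0.15 on the iTreg arrays, against -0.12, -0.11 and -0.31 on those of WT Treg. These ranges overlapped. The probe sets with several symbols, which are no members, had medians of -0.12 (21 higher, 55 lower) for the large and -0.07 (13 higher, 21 lower) for the small subunit.

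WT Treg replicate 3 stood apart from the other arrays. It held the highest signal of the 6 arrays for 35 of the 46 members tested, where it held the highest of 20.7% of all genes tested. The lowest signal fell on iTreg replicate 3 for 16 members and on WT Treg replicate 2 for 21, where these arrays held the lowest of 27.3% and 11.1% of all genes tested. The large subunit's median deviation from each gene's mean over the arrays was 0.05, -0.11 and -0.18 in iTreg, against 0.00, -0.27 and 0.51 in WT Treg. The small subunit's was -0.03, -0.08 and -0.07 in iTreg, against 0.10, -0.26 and 0.41 in WT Treg. The WT Treg arrays thus spanned a wider range than lay between the groups, and all 3 iTreg medians lay between those of WT Treg replicates 2 and 3 in both subunits.

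Set against the mean of replicates 1 and 2 of its own group, WT Treg replicate 3 was higher in 39 members and lower in 7, with a median of 0.68 on the log2 scale, where the median of all genes tested was 0.00. iTreg replicate 3 was higher in 22 and lower in 24, with a median of -0.02 and a range of -2.08 to 0.98. The medians and counts that follow are over all 51 members, those below the filter included. Without WT Treg replicate 3 the median difference between the groups was -0.03 for the large and -0.05 for the small subunit. Then 23 members were higher and 28 lower, and the median of all genes tested was -0.06. Without iTreg replicate 3 it was -0.15 and -0.08, without iTreg replicate 2 it was -0.22 and -0.03, and without WT Treg replicate 2 it was -0.34 and -0.22. Without replicate 3 of both groups it was 0.07 and 0.05, with 28 members higher and 23 lower.

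**Figure D2:**
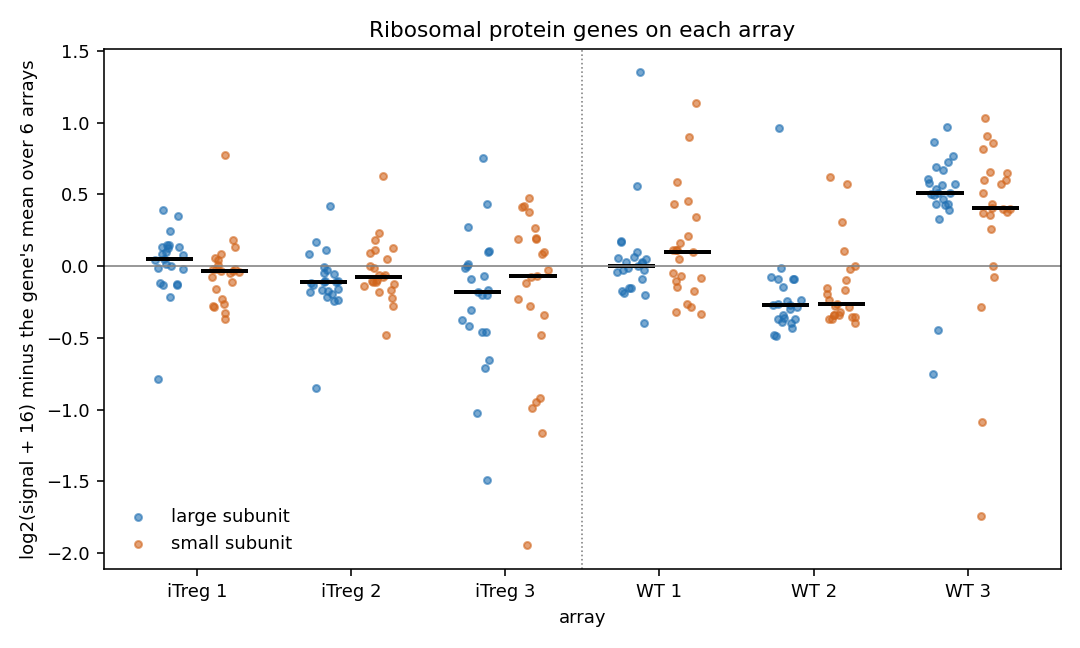
Deviation of each member tested from its own mean over the 6 arrays (vertical axis, log2 scale), by array, the 3 iTreg arrays left and the 3 WT Treg arrays right, with 1 point per gene and a black bar at the median. The medians of WT Treg replicate 3 (0.51 large, 0.41 small) stand above those of the other 5 arrays, and iTreg replicate 3 has the widest downward scatter in the large subunit.

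Among core proteins of the small subunit, Rps19 came closest to a difference between the groups. Rps19 is needed to mature the small subunit's ribosomal RNA, and its loss in humans causes Diamond-Blackfan anaemia. Its signal was 2447, 2743 and 1528 in iTreg, against 4073, 2921 and 5572 in WT Treg. All 3 iTreg arrays lay below the WT Treg arrays, though iTreg replicate 2 and WT Treg replicate 2 were close. The log2 difference was -0.89 with a standard error of 0.32 (95% interval -1.59 to -0.20, limma adjusted p = 0.555), and it was -0.41 without replicate 3 of both groups.

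Rps14, whose loss gives the anaemia of the human 5q- syndrome, had signals of 4296, 8593 and 1427 in iTreg, against 7025, 6880 and 11366 in WT Treg. iTreg replicate 2 was above WT Treg replicates 1 and 2 and the groups overlapped, while iTreg replicate 3 stood far below the rest. The log2 difference of -1.12 ± 0.51 (SE, limma adjusted p = 0.656) was -0.43 without iTreg replicate 3. A second probe set of Rps14 gave -0.52.

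Rps19bp1, also known as Aros and as a regulator of the deacetylase Sirt1, had signals of 102, 112 and 50.6 in iTreg, against 311, 206 and 133 in WT Treg. Every iTreg array lay below every WT Treg array. The log2 difference was -1.14 ± 0.43 (SE, limma adjusted p = 0.598), the most negative of the 46. Unlike Rps19 and Rps14 it was higher on WT Treg replicates 1 and 2 than on replicate 3, and its difference was -1.43 without that array. With Rps19, it was 1 of the 2 members tested whose groups did not overlap; Rpl37, below the filter, was a further one.

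In the large subunit, the most negative differences were those of Rpl22l1, Rpl11, Rpl39 and Rpl7a. Rpl11 is part of the 5S particle that binds Mdm2 and stabilises p53 when ribosome assembly fails. Its signal was 5212, 4418 and 3006 in iTreg, against 5557, 4677 and 7957 in WT Treg. The groups overlapped, with replicates 1 and 2 alike in both and the third replicates far apart, and the log2 difference was -0.52 ± 0.30 (SE, limma adjusted p = 0.725), or -0.09 without replicate 3 of both groups.

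Rpl7a, a protein of the large subunit's solvent side, had 4215, 3864 and 4065 in iTreg, against 5126, 3534 and 7565 in WT Treg. Its log2 difference was -0.35. The iTreg arrays were alike here and lay between WT Treg replicates 1 and 2. Rpl39, which lines the exit tunnel, had 257, 211 and 89.0 in iTreg, against 529, 196 and 111 in WT Treg. Its log2 difference of -0.39 was 0.02 without iTreg replicate 3. In both genes the groups overlapped.

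The most positive members differed by less. Rpl13a, which in human myeloid cells leaves the ribosome to silence inflammatory mRNAs, had signals of 11583, 10916 and 15821 in iTreg, against 8895, 9229 and 15738 in WT Treg. Rps29, a zinc-binding protein of the small subunit head, had 13724, 12663 and 18619 in iTreg, against 11146, 11012 and 18313 in WT Treg. Rps28 had 9788, 8368 and 12636 in iTreg, against 7548, 7515 and 12515 in WT Treg. In all 3 genes replicates 1 and 2 of iTreg were above those of WT Treg, the third replicates were nearly equal and higher than their own group's others, and the ranges overlapped. The log2 differences were 0.21 ± 0.30, 0.17 ± 0.30 and 0.18 ± 0.30 (SE, limma adjusted p = 0.893, 0.913 and 0.911).

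Rps20, of the small subunit head, had the same pattern as Rpl13a, Rps29 and Rps28, with 12035, 10990 and 15573 in iTreg, against 9840, 9389 and 15620 in WT Treg, and a log2 difference of 0.17. Rpl14 and Rpl27, large subunit proteins, had log2 differences of 0.20 and 0.10. Other probe sets of Rpl27 gave -0.32 and -0.12, so its sign depended on the probe set. Rpl14 had 529, 215 and 684 in iTreg, against 358, 282 and 506 in WT Treg, and its difference was -0.13 without iTreg replicate 3, so no direction held. Rps25, needed for translation from several viral internal ribosome entry sites, had a log2 difference of 0.35, with 824, 469 and 402 in iTreg, against 721, 738 and 130 in WT Treg. Rps27 had 0.37, with 47.8, 55.0 and 75.0 in iTreg, against 107, 34.8 and 14.9 in WT Treg. The WT Treg arrays spanned the whole iTreg range in Rps27 and most of it in Rps25, and without WT Treg replicate 3 the differences were -0.43 for Rps25 and -0.09 for Rps27.

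**Figure D3:**
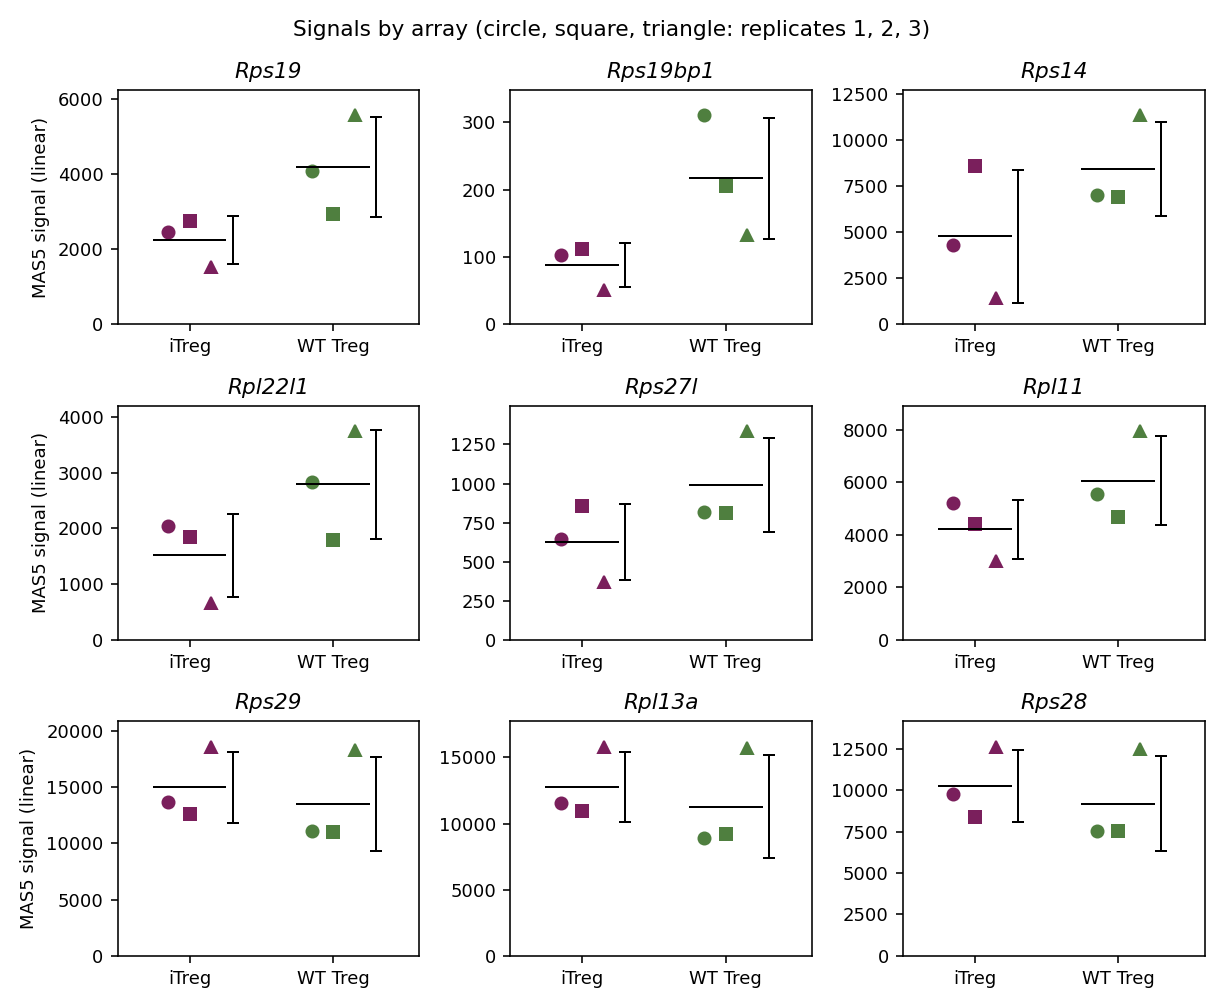
MAS5 signals (linear scale from 0) of 9 members on the iTreg arrays (left in each panel) and the WT Treg arrays (right), with circle, square and triangle for replicates 1, 2 and 3, the mean as a bar and the SD as the error bar (n = 3 per group). In Rps19 and Rps19bp1 the groups do not overlap, and in Rps29, Rpl13a and Rps28 the third replicates of both groups stand together at the top.

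Members with a known special role showed no called difference. The stalk proteins recruit the elongation factors to the ribosome. Rplp0, which anchors them, had signals of 5238, 4580 and 3454 in iTreg, against 4776, 4472 and 6594 in WT Treg, and Rplp2 had 9558, 7988 and 7516 in iTreg, against 7673, 6422 and 14733 in WT Treg. Without WT Treg replicate 3 their log2 differences, -0.25 and -0.11 with all arrays, were -0.08 and 0.24. Rpsa, a small subunit protein also described as a laminin receptor, had 10599, 8906 and 11428 in iTreg, against 9031, 7882 and 12899 in WT Treg, and a log2 difference of 0.08.

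Rps6 is the classic substrate of the S6 kinases downstream of mTOR. Its probe set had 123, 86.0 and 146 in iTreg, against 143, 117 and 154 in WT Treg. The groups overlapped and differed by -0.22. Rpl10a, Rpl38 and Rps26, described as present in a varying share of ribosomes in other mouse or yeast cells, had log2 differences of -0.33, 0.03 and -0.29. Rpl38, needed in mouse embryos to translate Hox mRNAs, had 11747, 10510 and 12188 in iTreg, against 9951, 8785 and 16107 in WT Treg. For Rpl38 the sign turned with quantile normalization (-0.13), as it did for Rpsa (-0.03). Rpl10a had 5908, 6383 and 6054 in iTreg, against 7095, 6203 and 10261 in WT Treg. Rps26 had 3074, 3548 and 3542 in iTreg, against 4009, 3117 and 5670 in WT Treg, again with WT Treg replicate 3 as the highest array.

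The remaining members tested are given by their range. The 9 other large subunit genes, Rpl12, Rpl19, Rpl27a, Rpl35, Rpl37a, Rpl4, Rpl41, Rpl6 and Rpl8, had log2 differences between -0.29 and -0.12. Of the 10 other small subunit genes, Rps9 (-0.52) and Rps7 (-0.40) were lowest and Rps2 (0.14) was highest, with Rps10, Rps15, Rps15a-ps6, Rps18, Rps24, Rps3 and Rps3a1 between them. The 5 members below the filter had -0.38 (Rpl39l), -0.38 (Rpl3l), -0.23 (Rpl37), -0.17 (Rps16) and -0.06 (Rps4l), all with mean signals within the range of the unspiked controls. On WT Treg replicate 1 Rpl39l reached 46.8, above that range, and without that array its difference was 0.02.

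Paralogues were set against the standard protein they are named after, within each array. Whether a paralogue takes the place of that protein in ribosomes was not measured. Rpl22l1 competes with Rpl22, an RNA-binding protein of which the loss in mice blocks αβ T cell development. Rpl22l1 had signals of 2044, 1846 and 669 in iTreg, against 2825, 1791 and 3751 in WT Treg, and a log2 difference of -0.96 ± 0.42 (SE, limma adjusted p = 0.633). Rpl22 had 9227, 7125 and 8497 in iTreg, against 8164, 6403 and 11957 in WT Treg, and a log2 difference of -0.05. The log2 ratio of the Rpl22l1 to the Rpl22 signal was -2.17, -1.94 and -3.64 in iTreg, against -1.53, -1.83 and -1.67 in WT Treg.

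All 3 iTreg ratios lay below the WT Treg ratios, by 0.91 on average, with iTreg replicate 3 far below the others. A two-sided exact permutation test gave p = 0.1, the smallest that 3 against 3 arrays allow, and 0.5 after adjustment over the 5 pairs. Other probe sets of Rpl22 gave differences of -0.71 and -0.31, so the ratio depended on the probe set. Without replicate 3 of both groups the difference of Rpl22l1 was -0.21.

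Rps27l, a p53-induced relative of Rps27, had 643, 857 and 372 in iTreg, against 818, 813 and 1338 in WT Treg. The groups overlapped and the third replicates stood furthest apart, with a log2 difference of -0.69 ± 0.35 (SE, limma adjusted p = 0.701) and -0.90 and -0.54 from its other probe sets. Rpl7, Rpl7l1 and Rps4x had log2 differences of -0.15, -0.07 and 0.03. Other probe sets gave -0.41 and -0.44 for Rpl7 and -0.73 and -0.36 for Rpl7l1, so the ratio of Rpl7l1 to Rpl7 also depended on the probe set. The ratio of Rps27l to Rps27 differed by -1.05 (exact permutation p = 0.4), that of Rpl7l1 to Rpl7 by 0.07 (p = 0.8), that of Rpl39l to Rpl39 by 0.01 (p = 1) and that of Rps4l to Rps4x by -0.09 (p = 0.9), all two-sided with 3 arrays per group. Rpl39l and Rps4l had mean signals within the range of the unspiked controls, so their ratios carry no information on the transcripts. None of these 5 pairs can reach 0.05 in this design.

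Probe sets of the same ribosomal protein gene often gave different values. The 51 members had 107 probe sets in all, and 22 genes had more than 1 above the filter. Within these genes the log2 differences spanned 0.55 in the median and 1.20 at most (Rpl13a), and in 8 genes they differed in sign. Among probe sets whose mean signal was above the unspiked controls in both groups, 20 genes had more than 1, with a median span of 0.57, and 6 of them differed in sign, Rps3 with 1 difference of only -0.0030. Rps10 had 6 probe sets with differences between -0.81 and -0.05. Those of Rpl35 with a mean signal above the unspiked controls in both groups lay between -1.06 and -0.11, those of Rps7 at -0.40 and -1.13.

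Probe sets of the same gene could diverge on iTreg replicate 3. The Rps10 probe set used had signals of 7556, 6436 and 8940 in iTreg, against 7466, 6042 and 11643 in WT Treg. Another Rps10 probe set had 2059, 2473 and 952 in iTreg, against 2933, 2074 and 4378 in WT Treg. On iTreg replicate 3 the first was thus the highest of the iTreg arrays and the other the lowest, for the same gene. For Rpl13a, 1 further probe set had 1619, 1525 and 5698 in iTreg, against 1542, 1193 and 2012 in WT Treg, and another 2854, 3442 and 1641 in iTreg, against 3541, 2937 and 5038 in WT Treg. Without iTreg replicate 3 the median span within a gene was 0.30 in place of 0.55. In some genes the span was wider without it, as in Rps18 (1.68 in place of 0.92) and Rpl7l1 (1.06 in place of 0.66). No other array was left out for this measure, so the fall has no comparison. The Gapdh 3′ to 5′ difference was also highest on that array (3.35) while that of Actb was lowest (0.00), and their part in the scatter was not tested.

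**Figure D4:**
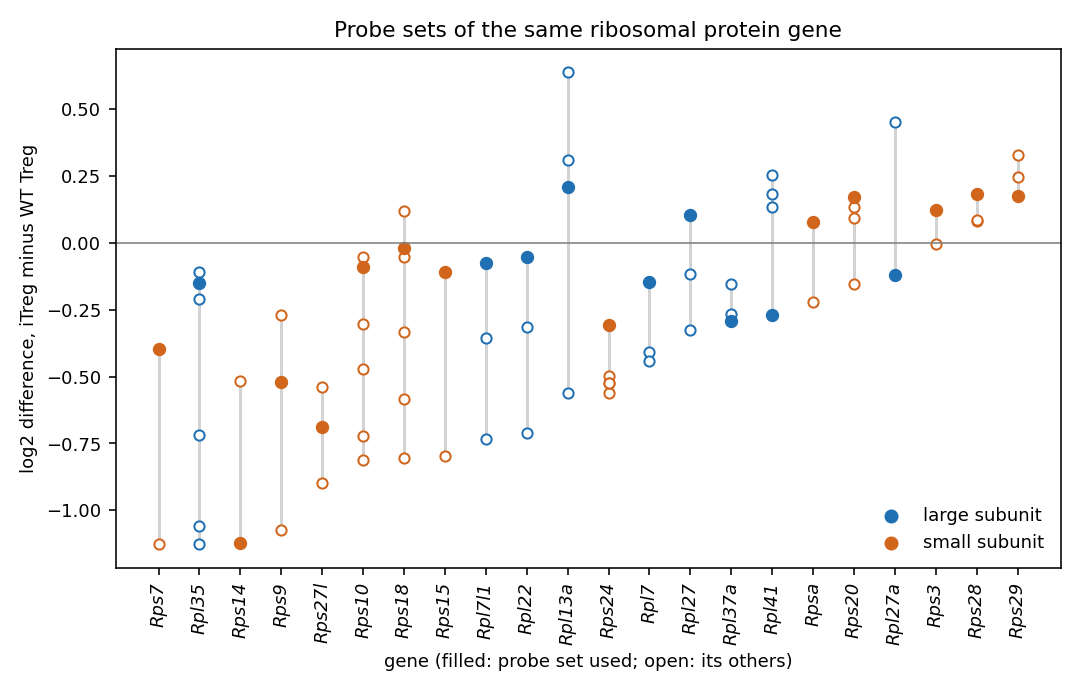
Log2 differences (iTreg minus WT Treg, vertical axis) of all probe sets above the filter for the 22 members with more than 1, with the probe set used filled, the others open and a grey line for the span. Rpl13a has the widest span, 1.20, and the probe sets of 8 genes, some of them near the unspiked controls, fall on both sides of 0.

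Other genes of translation were compared from lists chosen by role. None of their genes was called at an adjusted p under 0.05 (limma). The 50 measured translation initiation genes, 49 of them tested, had 19 higher and 31 lower means in iTreg, a median log2 difference of -0.16, and 3 genes at an unadjusted p under 0.05, Eif3m, Eif3d and Eif3h, all lower (6.12%, against 4.58% of all genes). These 3 are subunits of eIF3, of which 11 were measured, 3 higher and 8 lower with a median of -0.16. Among the 11, every iTreg array lay above every WT Treg array in Eif3c and below in Eif3m and Eif3d. Of all genes tested, 5.1% lay above and 7.78% below in this way. Eif3m, a subunit of the scaffold that loads the small subunit on mRNA, had signals of 764, 830 and 397 in iTreg, against 1163, 1029 and 1569 in WT Treg. Its groups did not overlap, and the log2 difference was -0.95 ± 0.33 (SE, limma adjusted p = 0.532).

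Without WT Treg replicate 3 the median of the initiation list was 0.04, close to 0 as for the ribosomal proteins. The 6 elongation genes had 2 higher and 4 lower and a median of -0.11, or 0.08 without that array. Eef1e1, a scaffold protein of the tRNA synthetase complex, had 165, 195 and 62.5 in iTreg, against 297, 225 and 354 in WT Treg, with no overlap and a log2 difference of -1.07 ± 0.43 (SE, limma adjusted p = 0.613). Fau, whose product is processed to a protein of the small subunit, had 4847, 7033 and 7682 in iTreg, against 7096, 5323 and 10319 in WT Treg, and a difference of -0.19.

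The lists of nucleolar assembly and of the mitochondrial ribosome had lower medians than the ribosomal proteins. Of 45 ribosome biogenesis genes 38 had a lower and 7 a higher mean in iTreg, with a median log2 difference of -0.40. In 7 of them (15.6%) every iTreg array lay below every WT Treg array, against 7.78% of all genes, while 2, Polr1b and Fbl, had an unadjusted p under 0.05 and a lower mean (4.44%, against 4.58%), and 1, Gnl3, a higher one. Fbl, Gnl3, Eif3c, Eif3d and Eif3h are named after their values were seen. Polr1b, a subunit of RNA polymerase I, had signals of 25.8, 1.15 and 3.58 in iTreg, against 55.1, 65.7 and 96.4 in WT Treg. The iTreg values were all within the range of the unspiked controls, so that no size of the difference is given (limma adjusted p = 0.191), and Polr1b passed the filter through the WT Treg arrays. The median of the list was -0.27 without WT Treg replicate 3 and -0.11 without replicate 3 of both groups, where 17 genes were higher and 28 lower.

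The 76 mitochondrial ribosome genes, a separate protein set that translates the respiratory chain's mitochondrial mRNAs, had 15 higher and 61 lower means and a median of -0.39. At an unadjusted p under 0.05, 10 were lower (13.2%, against 4.58% of all genes), and in 19 (25%, against 7.78%) every iTreg array lay below every WT Treg array. Mrpl16 had 396, 509 and 117 in iTreg, against 633, 808 and 1085 in WT Treg, without overlap, and a log2 difference of -1.45 ± 0.46 (SE, limma adjusted p = 0.492). The list's median was -0.31 without WT Treg replicate 3 and -0.26 without replicate 3 of both groups, with 19 genes higher and 57 lower in both cases.

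Of the 17 measured genes of mTOR and Myc control, 5 were higher and 12 lower, with a median of -0.31. The list holds genes that promote mTOR or Myc activity and genes that restrain it, such as Tsc1, Tsc2 and Mxd1. Its counts and median therefore give no direction for the activity of either. Myc, the transcription factor that drives ribosome synthesis, had the smallest p of the list. Its signal was 429, 243 and 300 in iTreg, against 608, 547 and 958 in WT Treg. The groups did not overlap and the log2 difference was -1.08 ± 0.33 (SE, limma adjusted p = 0.460). The list's median was -0.05 without replicate 3 of both groups, where 8 genes were higher and 9 lower.

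**Figure D5:**
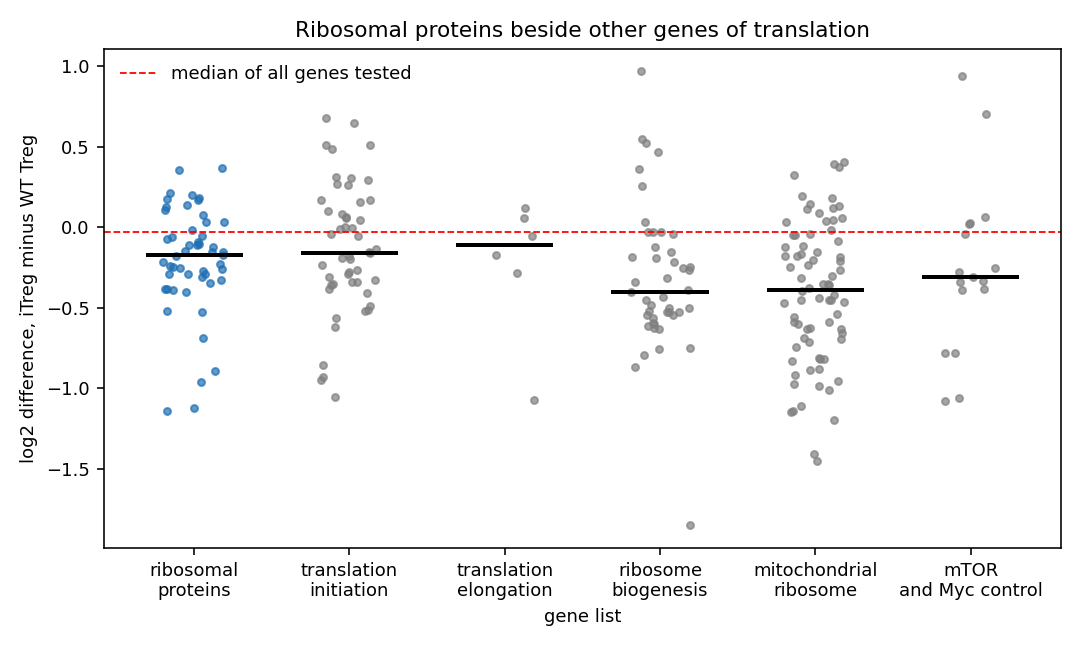
Log2 differences (iTreg minus WT Treg, vertical axis) of the ribosomal protein genes (blue) and of 5 other gene lists (grey), with 1 point per gene, a black bar at each list's median and a dashed line at the median of all genes tested (-0.03). The medians are -0.17 for the 51 ribosomal protein members (-0.15 over the 46 tested), -0.40 for ribosome biogenesis and -0.39 for the mitochondrial ribosome.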

How the data were processed

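Foxp3+ CD4 T cells, 3 iTreg and 3 WT total Treg samples, were measured on 6 arrays; groups come from the sample titles. The authors deposited linear intensity values made with MAS5, per the submitters' processing notes; its version and a genome build are not given in the sources used here, and detection calls were not used. The deposited intensity values had a 2% trimmed mean of 150.0 on every array. Of 45101 probe sets 64 were controls, and the platform annotation gave 34945 of the rest 1 symbol, 932 several and 9160 none; the last 2 kinds name no gene here. For 204 probe sets the symbol had no match in the RefSeq table, and 0 symbols were updated.

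Intensities were taken as log2(signal + 16), which understates the change of genes with low signals. The probe set with the highest mean stood for a gene, and genes at or above the 40th percentile of that mean, 10916 of 18193, were tested with limma 3.58.1 in R 4.3.3 (lmFit, eBayes with an intensity trend, two-sided, Benjamini-Hochberg at 0.05, iTreg minus WT Treg), after a check on simulated data. Members, gene lists and tests were chosen with earlier results of these data known. Named were, in each subunit, the 4 most positive and 4 most negative members tested, the 2 brightest, members fixed by role, canonical genes with their paralogues, and the gene with the smallest p of each list. Rps2, Rps7, Rps9, Rps10, Rpl35 and other members were named after their values were seen, as was each start site shown. Alternatives changed the pseudocount, scaling, filter, probe set rule, variance model and arrays. Replicate numbers were not used as pairs. Same-numbered arrays correlated at 0.17, 0.05 and 0.13 in their deviations from the group mean, and differently numbered ones at -0.17 to 0.05. The number of arrays limits the precision.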

Additional observations from a re-analysis of the deposited data

How the results depend on the processing

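None of the 46 ribosomal protein genes tested was called under any alternative run, and the limma count over all genes was small throughout. That count, 3 as reported, was 0 with a pseudocount of 1, 8 with median scaling, 0 with no filter on low signals, 14 with array weights, 0 without both arrays whose labels disagree with their titles and 0 without replicate 3 of both groups; leaving out 1 array at a time gave 0 to 1. The large subunit median of -0.24 ranged from -0.34 to -0.03 when 1 array was left out and the small subunit median of -0.10 from -0.22 to -0.03. Quantile normalization gave -0.26 and -0.13, and median scaling, which moved the median of all genes tested to 0.05, gave -0.16 and -0.02. The small minus large median of 0.14 was 0.042 with array weights, 0.075 over every probe set of the members, 0.051 over the probe sets with several symbols (the last 2 chosen after seeing the data), -0.018 without replicate 3 of both groups, and -0.019 to 0.19 without 1 array. The replicate number as a block gave 3 genes called and 0 members, with 1014 genes at an unadjusted p under 0.05 in place of 828. Deviations from the group mean correlated at 0.05 to 0.17 between same-numbered arrays, against -0.17 to 0.05 between differently numbered ones. The pairing is known from the number only, and a shared effect of the number was not tested beyond this block. Of 565 values of 29 named members under alternatives, 49 differed in sign from the reported value, and 13 members kept their sign in all. The cause of these shifts was not tested. Low signals limit Rpl37, Rpl39l, Rpl3l, Rps16 and Rps4l.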
